A study of Rattus norvegicus with 10 samples.

Results

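G1 cyclins and cyclin-dependent kinase (CDK) inhibitors were followed in 5 rat mammary tumours, each sampled once before and once after oral hydroxytyrosol. The family comprised 10 genes, Ccnd1, Ccnd2, Ccnd3, Ccne1, Cdkn1a, Cdkn1b, Cdkn1c, Cdkn2a, Cdkn2b and Cdkn2c, out of 14217 genes named on the array. The genes were taken by symbol from probe sets annotated to exactly 1 gene, which gave 15 of the 31042 probe sets that were not controls. The host animals were female Sprague-Dawley rats given the carcinogen dimethylbenz(a)anthracene (DMBA) by mouth, once, at 100 mg/kg. In the basal group (n = 5), untreated tumours were biopsied when they reached 2 cm3, in rats aged 12 weeks. In the final group (n = 5), the same tumours were sampled at 19 weeks of age, after 6 weeks of hydroxytyrosol, a phenol of olive oil, at 0.5 mg/kg by gavage on 5 days a week. All tumours were of histological grade II, and all animals had received DMBA.

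Every final sample was treated, older and from a tumour that had been growing for longer, so treatment, age and growth cannot be told apart in any difference below. The sample labels name a biopsy for the basal group and a total tumour for the final group, while the series' design text describes needle biopsies for both, so a difference in sampling cannot be told apart either. The labels identify tumours and not animals, and whether the 5 tumours grew in 5 rats is not stated. Each p-value from the paired fit therefore weighs a mean difference against the spread of differences among these tumours, not among animals.

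D-type cyclins bind Cdk4 and Cdk6 in response to mitogens, and cyclin E binds Cdk2; both kinds of complex phosphorylate the retinoblastoma protein and release E2F transcription factors for entry into S phase. The INK4 inhibitors (Cdkn2a, Cdkn2b, Cdkn2c) bind Cdk4 and Cdk6, whereas the Cip/Kip inhibitors (Cdkn1a, Cdkn1b, Cdkn1c) bind cyclin-CDK complexes, Cdk2 complexes above all. Cyclin D1 is required for the lobular growth of the mammary gland in pregnancy, and it is often overexpressed in mammary cancer.

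Upstream sequences, the 250 bases before the annotated start of transcription, were found in the RefSeq table of build GRCr8 for 7 of the 10 genes; Ccnd1, Ccnd2 and Cdkn1c had no entry. Those of Cdkn2a and Cdkn2b are shown because these neighbouring genes had higher final signals in every tumour. That of Ccne1 is shown because its signal was lower in all tumours but 1. Cdkn2c was also lower in all tumours but 1, with a mean difference of -0.11 beside -0.30 for Ccne1, and its sequence is not shown. A single window was kept per gene. Whether that of Cdkn2a belongs to the transcript read by its probe set was not determined. Capitals mark the GC box (GGGCGG on either strand) and the cAMP response element (TGACGTCA, which reads the same on both strands). The Cdkn2a sequence lies at chr5:109107957-109108206, that of Cdkn2b at chr5:109134856-109135105 and that of Ccne1 at chr1:99927910-99928159, each on the minus strand and written 5′ to 3′ in the direction of the gene.
Cdkn2a upstream: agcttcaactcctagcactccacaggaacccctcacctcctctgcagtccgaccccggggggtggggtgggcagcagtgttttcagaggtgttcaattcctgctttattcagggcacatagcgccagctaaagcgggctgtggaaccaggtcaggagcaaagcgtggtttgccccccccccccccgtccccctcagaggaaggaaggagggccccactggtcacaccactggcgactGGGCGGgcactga
Cdkn2b upstream: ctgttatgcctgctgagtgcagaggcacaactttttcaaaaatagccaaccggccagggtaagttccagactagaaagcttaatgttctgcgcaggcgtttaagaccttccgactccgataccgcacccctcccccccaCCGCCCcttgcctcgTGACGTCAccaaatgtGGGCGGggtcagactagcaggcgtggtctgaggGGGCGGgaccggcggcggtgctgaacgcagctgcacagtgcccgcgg
Ccne1 upstream: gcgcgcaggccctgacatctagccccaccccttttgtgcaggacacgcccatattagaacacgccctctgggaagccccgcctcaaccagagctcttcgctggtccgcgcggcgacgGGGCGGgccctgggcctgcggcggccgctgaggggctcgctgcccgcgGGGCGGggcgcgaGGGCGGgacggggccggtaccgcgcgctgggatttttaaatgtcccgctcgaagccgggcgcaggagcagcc
The Cdkn2a window held 1 GC box, and the Cdkn2b and Ccne1 windows held 3 each. A GC box occurred in 6 of the 7 members' windows, all but that of Cdkn1a, and in 32.4% of 27457 windows of the same length in the table. The cAMP response element occurred in the Cdkn2b window alone among the 7, and in 1.70% of all windows. An E2F-like motif (TTTNNCGC), an E-box (CACGTG) and an AP-1 motif (TGANTCA), searched on both strands, were in none of the 7 windows and in 4.35%, 5.80% and 6.36% of all windows. These matches describe the letters only, since no measurement here bears on binding.

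All values below are log2 hybridisation signals, summarised per probe set by robust multi-array averaging (RMA). Where several probe sets read 1 gene, the brightest stands for the gene, and signals of different probe sets were not set against each other as levels. The mean signal of BioB, a bacterial RNA spiked in near the limit of detection, was 8.04; below it, a difference is less certain and no fold is given. The table holds no detection calls. Values are listed for tumours 66D2, 67D3, 45D3, 49I1 and 51I1, in that order. Differences are final minus basal within a tumour, tested with a limma model holding the tumour as a block over 18625 probe sets that remained after the dimmest 40% were left out, with Benjamini-Hochberg adjustment.

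No member differed at an adjusted p of 0.05, and neither did any other probe set (0% of 18625, with 1494 at an unadjusted p under 0.05). At an unadjusted p under 0.05, 3 of the 10 members had higher final signals (Cdkn2a, Ccnd2 and Cdkn2b) and none had lower ones. Among all 10839 genes tested, 2.78% were higher and 4.36% lower by that rule, 7.14% in all; over probe sets the share was 8.02%. The same 3 members were the ones with higher final signals in all 5 tumours, a pattern found in 3.52% of all genes. The basal and final values overlapped in every member, whereas they did not overlap in 1.2% of all genes. The mean difference was above 0 in 7 members and below 0 in 3, with a median of 0.24, beside a median of -0.01 over all genes, of which 47.9% were higher. The 10 members were picked as a family with results of these arrays already known, so these counts describe the family and test nothing about it. In a fit without the tumour block, which ignores the pairing, 0 of the 10 members were at an unadjusted p under 0.05.

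**Figure D1:**
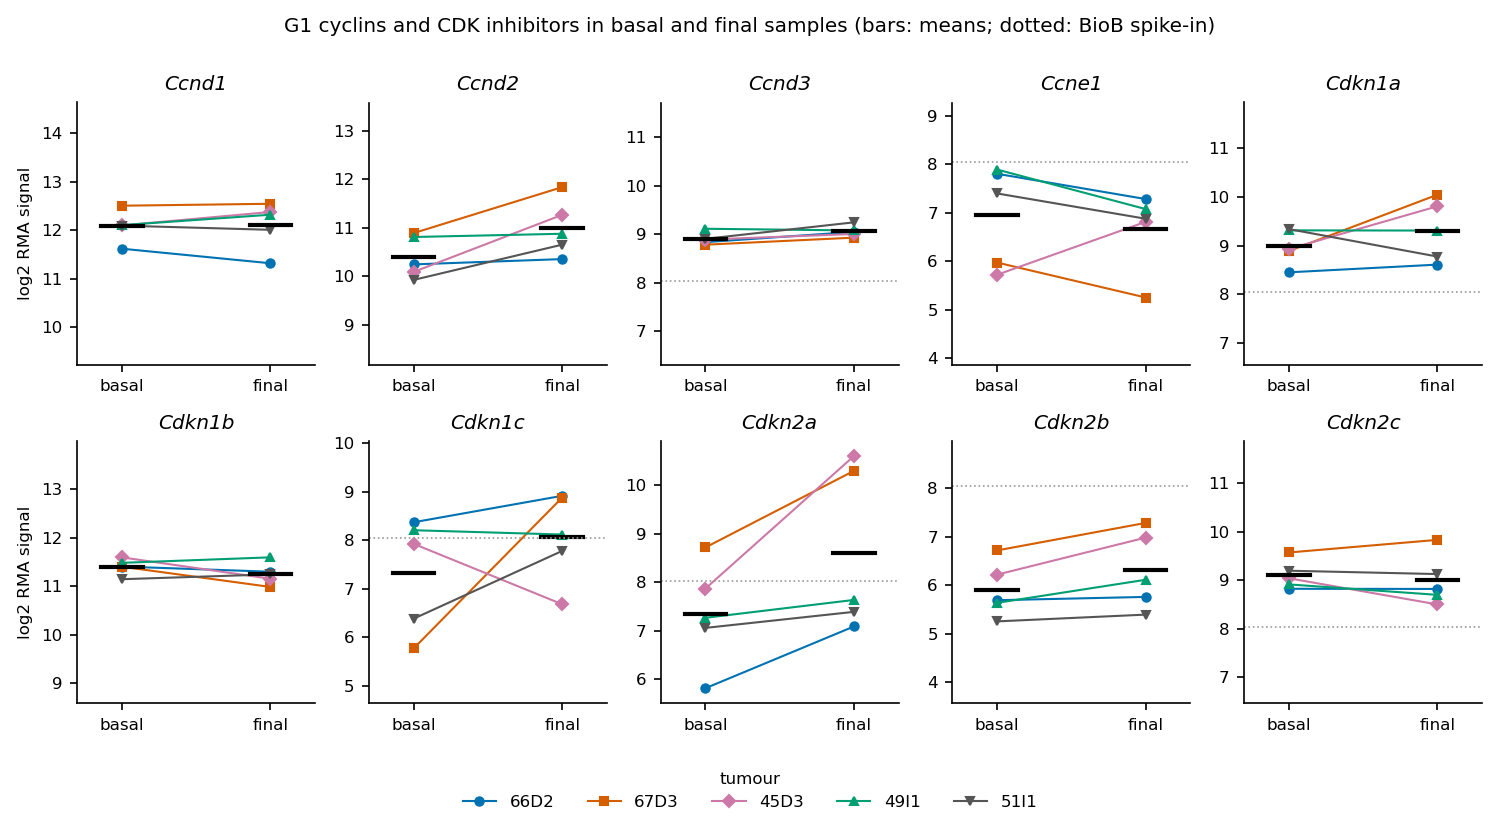
The log2 RMA signal (vertical axis) of the 10 members, from the brightest probe set of each, in the basal and final sample of each tumour (lines and symbols), with group means as black bars and the mean BioB spike-in signal as a dotted line where it falls in range. Every panel spans the same number of log2 units: Cdkn2a is higher in the final sample of each tumour, above 10 in tumours 67D3 and 45D3, while Ccnd1, Ccnd3 and Cdkn1b stay within narrow ranges.

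Among the D-type cyclins, Ccnd1 stayed at about the same level, Ccnd2 was higher in every final sample, and Ccnd3 hardly varied. Ccnd1 encodes cyclin D1, and 3 probe sets read it. The brightest (1383075_at) gave 11.62, 12.51, 12.10, 12.11 and 12.10 in the basal samples and 11.32, 12.55, 12.38, 12.32 and 12.01 in the final samples. Tumour 66D2 was lowest in both groups and tumour 67D3 highest in both, so the tumours kept these extremes while the group means hardly moved. The means were 12.09 ± 0.31 (SD, n = 5) and 12.11 ± 0.48 (SD, n = 5), a difference of 0.03 (SE 0.11, 95% interval -0.25 to 0.30, adjusted p = 0.958 by limma). The final sample was higher in 3 of the 5 tumours. The SD of the tumours' means, 0.39, was larger than the SD of their differences, 0.23. The other 2 probe sets of Ccnd1, 1371643_at and 1371150_at, differed by -0.14 and -0.03 (adjusted p = 0.789 and 0.964 by limma). Across the 10 arrays the 3 probe sets correlated with each other at r between 0.96 and 0.97, so they ranked the samples nearly alike.

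Ccnd2 encodes cyclin D2 (probe set 1370810_at). It gave 10.25, 10.89, 10.09, 10.81 and 9.93 in the basal samples. The final samples gave 10.36, 11.84, 11.27, 10.88 and 10.66. The within-tumour differences were 0.11, 0.95, 1.18, 0.07 and 0.73: tumours 67D3, 45D3 and 51I1 carried most of the mean difference, while 66D2 and 49I1 were nearly level, and the groups overlapped. The means were 10.40 ± 0.43 and 11.00 ± 0.58 (SD, n = 5 each), a difference of 0.61 (SE 0.19, 95% interval 0.15 to 1.06), or 1.52-fold. It was higher in 5 of 5 tumours but did not pass the adjusted threshold (limma, unadjusted p = 0.0170, adjusted p = 0.579). The exact sign-flip permutation test over the 5 tumours gave a two-sided p of 0.0625, the smallest it can give with 32 sign patterns. Leaving out tumour 67D3 moved the unadjusted limma p past 0.05, and without 51I1 it lay just under 0.05.

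Ccnd3, which encodes cyclin D3 (probe set 1369935_at), had the narrowest spread of the 10 members. It gave 8.84, 8.79, 8.89, 9.11 and 8.91 in the basal samples and 9.05, 8.93, 9.01, 9.08 and 9.25 in the final samples. The groups overlapped and 4 of 5 tumours were higher in the final sample, all but 49I1. The means were 8.91 ± 0.13 and 9.06 ± 0.12 (SD, n = 5 each), and the difference of 0.16 (SE 0.09, 95% interval -0.07 to 0.38) had an adjusted p of 0.700 by limma.

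Ccne1, which encodes cyclin E1 (probe set 1373530_at), was lower in 4 of 5 final samples and higher in the other, tumour 45D3. The basal samples gave 7.80, 5.97, 5.72, 7.89 and 7.40. The final samples gave 7.28, 5.25, 6.81, 7.08 and 6.88. All 10 signals lay below BioB. Tumours 66D2, 49I1 and 51I1 began above 7 and tumours 67D3 and 45D3 below 6, which made the basal group wider than any within-tumour difference. The differences were -0.52, -0.72, 1.09, -0.81 and -0.52, with a mean of -0.30 (SE 0.28, 95% interval -0.98 to 0.38, adjusted p = 0.802 by limma). Without tumour 45D3, the only one with a positive difference, the mean was -0.64 (unadjusted p = 0.000779, adjusted p = 0.126 by limma), in a fit where 18.2% of all probe sets had an unadjusted p under 0.05. Without any other single tumour it lay closer to 0, at -0.24 without 66D2, -0.19 without 67D3, -0.17 without 49I1 and -0.24 without 51I1. Of the 10838 other genes, the 3 whose signals followed Ccne1 most closely over the 10 arrays were Birc5 (r = 0.993), Ube2t (r = 0.992) and Mms22l (r = 0.991). The arrays of a pair share a tumour, so these correlations are descriptions.

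The Cip/Kip inhibitors went different ways in different tumours, and none passed the test. Cdkn1a encodes p21, a direct target of p53. Its brighter probe set (1388674_at) gave 8.45, 8.89, 8.93, 9.31 and 9.34 in the basal samples and 8.61, 10.05, 9.81, 9.31 and 8.77 in the final samples. It was higher by 1.16 in tumour 67D3 and 0.88 in 45D3, close to level in 66D2 and 49I1, and lower by 0.57 in 51I1. The means were 8.98 ± 0.37 and 9.31 ± 0.63 (SD, n = 5 each), a difference of 0.33 (SE 0.25, 95% interval -0.28 to 0.94, adjusted p = 0.760 by limma). It was 0.12 without tumour 67D3, 0.19 without 45D3 and 0.55 without 51I1. The dimmer probe set (1387391_at), below BioB on all 10 arrays, differed by 0.31 (SE 0.44, adjusted p = 0.867 by limma) and was higher in 2 of 5 tumours. The probe sets correlated at r = 0.73 over the 10 arrays. Over those arrays the genes most like Cdkn1a were Cdh1 (r = 0.962), Vav3 (r = 0.934) and Clba1 (r = 0.934).

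Cdkn1b encodes p27, which holds Cdk2 complexes inactive in resting cells. Its bright probe set (1373812_at) gave 11.40, 11.40, 11.59, 11.48 and 11.14 in the basal samples and 11.30, 10.98, 11.15, 11.59 and 11.24 in the final samples. Tumours 67D3 and 45D3 were lower by 0.42 and 0.44, and the other 3 differed by 0.11 or less in either direction. The means were 11.40 ± 0.17 and 11.25 ± 0.22 (SD, n = 5 each), and the difference of -0.15 (SE 0.12, 95% interval -0.45 to 0.15) had an adjusted p of 0.772 by limma. It was -0.084 without tumour 67D3 and -0.078 without 45D3. The second probe set (1369192_at) was the only 1 of the 15 left out as dim, with means of 4.81 and 5.06. It correlated with the bright probe set at r = -0.16 over the 10 arrays.

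Cdkn1c, the imprinted gene of p57 (probe set 1372299_at), had the widest range of differences in the family. The basal samples gave 8.37, 5.77, 7.92, 8.20 and 6.38. The final samples gave 8.91, 8.88, 6.68, 8.11 and 7.78. Of the 10 signals 5 lay below BioB. The differences ran from -1.24 in tumour 45D3 to 3.11 in tumour 67D3, with 0.55, -0.09 and 1.40 in 66D2, 49I1 and 51I1. The mean difference was 0.74 (SE 0.57, 95% interval -0.63 to 2.12, adjusted p = 0.757 by limma), with 0.15 without tumour 67D3 and 1.24 without 45D3. The SD of the differences, 1.64, was larger than that of the tumours' means, 0.67. The median difference of 9 skeletal muscle markers was 4.55, 6.83, 0.49, 3.13 and 0.25 in the 5 tumours. It was also largest in 67D3, but small in 51I1, where Cdkn1c was higher by 1.40. The adipocyte marker medians were 0.67, 2.14, -0.81, 0.13 and 2.99, negative in 45D3 as Cdkn1c was. The endothelial marker medians were 1.11, 0.56, -0.90, -0.16 and 1.47, with the sign of Cdkn1c in each tumour. In 45D3 the medians of fibroblast, macrophage, and T and NK cell markers were negative too (-0.93, -0.77 and -0.85). Those of luminal and skeletal muscle markers were positive there (0.12 and 0.49). With the skeletal muscle signal as a covariate the mean difference of Cdkn1c was -0.44 (unadjusted p = 0.584 by limma). Whether any of these tissues contributed was not tested beyond these values.

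**Figure D2:**
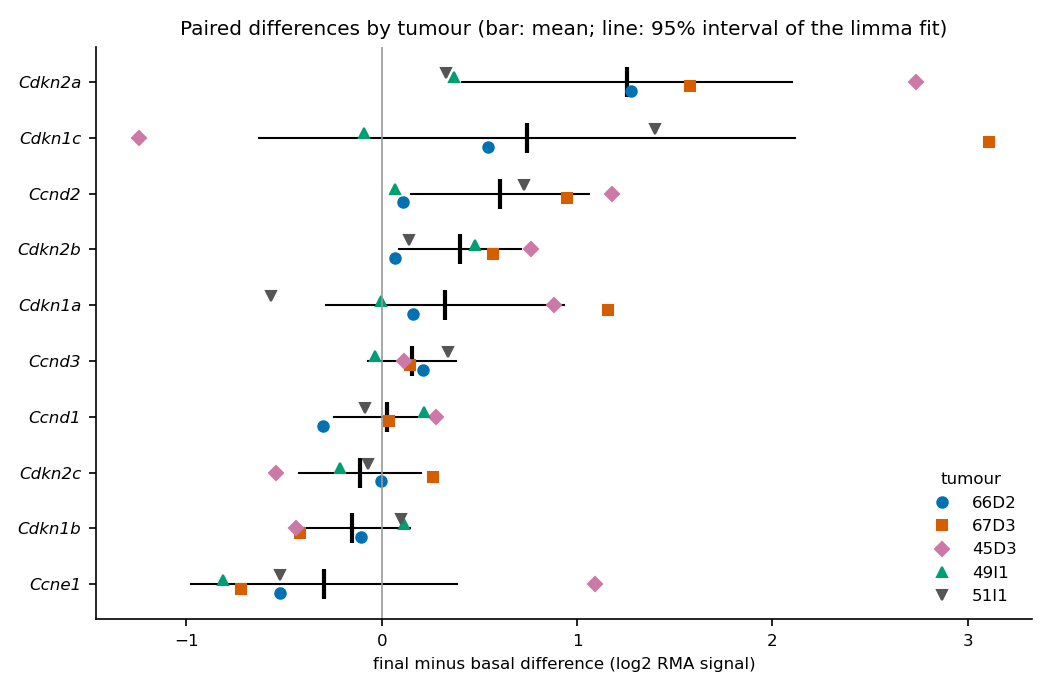
Final minus basal differences in log2 RMA signal (horizontal axis) for the 10 members, ordered by mean, with 1 symbol per tumour, the mean as a vertical bar and the 95% interval of the limma fit as a line. Cdkn2a, Ccnd2 and Cdkn2b have all 5 tumours to the right of 0; Ccne1 has 4 tumours to the left of 0 and tumour 45D3 at 1.09.

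The INK4 genes divided, with Cdkn2a and Cdkn2b higher in every final sample and Cdkn2c nearly level. Cdkn2a encodes p16Ink4a and, from the same locus, p19Arf, which stabilises p53 by binding Mdm2. A single probe set (1369194_a_at) reads the gene, and the sources used here do not say which of these transcripts it detects. The basal samples gave 5.82, 8.72, 7.87, 7.27 and 7.06. The final samples gave 7.09, 10.30, 10.60, 7.64 and 7.39. Of the 10 signals 7 lay below BioB; those above it were both samples of tumour 67D3 and the final sample of 45D3. The differences were 1.27, 1.58, 2.73, 0.37 and 0.33, which were large in 66D2, 67D3 and 45D3 and small in 49I1 and 51I1, and the groups overlapped. The means were 7.35 ± 1.07 and 8.60 ± 1.70 (SD, n = 5 each), a difference of 1.26 (SE 0.35, 95% interval 0.41 to 2.10). It was higher in 5 of 5 tumours but did not pass the adjusted threshold (limma, unadjusted p = 0.0101, adjusted p = 0.556). The exact two-sided sign-flip permutation p was again 0.0625. The unadjusted limma p stayed under 0.05 whichever single tumour was left out, with mean differences from 0.89 to 1.49.

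Cdkn2b encodes p15, an inhibitor induced by TGF-beta (probe set 1369193_at). It gave 5.69, 6.72, 6.22, 5.64 and 5.26 in the basal samples and 5.76, 7.29, 6.98, 6.11 and 5.40 in the final samples, all below BioB. The differences were 0.07, 0.57, 0.76, 0.48 and 0.14, so tumours 67D3, 45D3 and 49I1 carried most of the mean, and the groups overlapped. The means were 5.91 ± 0.57 and 6.31 ± 0.80 (SD, n = 5 each), a difference of 0.40 (SE 0.13, 95% interval 0.09 to 0.71). It was higher in 5 of 5 tumours and did not pass the adjusted threshold (limma, unadjusted p = 0.0188, adjusted p = 0.579). Without tumour 67D3 or without 49I1 the unadjusted p was above 0.05.

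The signals of Cdkn2a and Cdkn2b correlated at r = 0.88 over the 10 arrays, the closest of the 45 pairs of members. A single other locus lies between these genes in RefSeq. Mtap, a methionine salvage gene on the other side of Cdkn2a, differed by -0.15 (SE 0.17, adjusted p = 0.835 by limma) and was lower in 4 of 5 tumours, all but 45D3. Cdkn2a also correlated with Ccnd2 (r = 0.80) and Cdkn1a (r = 0.80), and Ccne1 correlated inversely with Cdkn2b (r = -0.74) and Cdkn2a (r = -0.68). The genes most like Cdkn2a outside the family were Pfn2 (r = 0.948), Prmt2 (r = 0.942) and Pip4p2 (r = 0.937). For Ccnd1 they were Nrarp (r = 0.965), Prag1 (r = 0.960) and S100a16 (r = 0.955).

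Cdkn2c, which encodes p18 (probe set 1370054_at), gave 8.82, 9.57, 9.04, 8.91 and 9.20 in the basal samples and 8.82, 9.83, 8.50, 8.70 and 9.13 in the final samples. Tumour 67D3 was highest in both groups, and the groups overlapped. The difference was -0.11 (SE 0.13, 95% interval -0.43 to 0.20, adjusted p = 0.835 by limma), with -0.21 without tumour 67D3 and -0.0068 without 45D3. A dim second probe set (1378711_x_at), below BioB throughout, differed by -0.01 (adjusted p = 0.979 by limma) and correlated with the first at r = -0.26.

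The partners and targets of these proteins were mostly lower in the final samples by small amounts, and none passed the adjusted threshold. Of 28 other genes of the G1 machinery, 26 were on the array and 24 passed the filter on dim signals; 7 were higher and 17 lower, with a median difference of -0.13. At an unadjusted p under 0.05, 2 of the 24 (8.33%) were lower and none higher, a share near the 7.14% of all genes. These were the E2F family members E2f5 (-0.45, SE 0.09, lower in 5 of 5 tumours, adjusted p = 0.413 by limma) and E2f8 (-0.52, SE 0.20, lower in 4 of 5 tumours, adjusted p = 0.604 by limma). Of the 10 signals of each gene, 8 of E2f5 and all 10 of E2f8 lay below BioB. Cdk4, a kinase partner of the D cyclins and the target of the INK4 proteins, differed by -0.02 (SE 0.13, adjusted p = 0.973 by limma). Cdk2, the partner of cyclin E, differed by -0.28 (SE 0.12, adjusted p = 0.631 by limma) and was lower in 4 of 5 tumours. Cdk6 was too dim to be tested, with means of 3.69 and 3.65. Rb1, which encodes the retinoblastoma protein, differed by 0.04 (SE 0.17, adjusted p = 0.960 by limma), and E2f1 by -0.28 (SE 0.18, adjusted p = 0.714 by limma). All 10 signals of E2f1, 8 of Cdk2 and 5 of Rb1 lay below BioB.

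Of 20 genes of DNA replication and mitosis, many of them E2F targets, 17 were tested and all 17 had a negative mean difference, with a median of -0.35, beside 52.1% of all genes with a negative one. At an unadjusted p under 0.05, 2 of the 17 (11.8%) were lower, beside 7.14% of all genes in either direction and 4.36% lower: the replication factors Mcm7 (-0.36, SE 0.12) and Cdc45 (-0.43, SE 0.14), each at an adjusted p of 0.580 by limma. Of the Cdc45 signals, 7 lay below BioB. Mki67, the proliferation antigen, was higher in the final sample of 3 of 5 tumours, with differences of 0.05, -1.68, 0.76, -0.72 and 0.01. Its negative mean of -0.32 (SE 0.33, adjusted p = 0.821 by limma) came mostly from tumour 67D3. The median over the 17 was -0.39, -1.03, 0.62, -0.72 and -0.25 in the 5 tumours, lower in the same 4 tumours in which Ccne1 was lower and higher in 45D3. Without tumour 45D3, the one that went the other way, 14 of the 17 replication genes and 10 of the 24 G1 genes were at an unadjusted p under 0.05, when 18.2% of all probe sets were too. Without any other single tumour, the replication genes numbered 0 (66D2), 0 (67D3), 1 (49I1) and 2 (51I1), and the G1 genes 1 in each case.

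Of 14 genes of the p53 axis, 11 were tested; 8 were higher and 3 lower, with a median of 0.11. At an unadjusted p under 0.05 there was 1 of the 11 (9.09%), near the 7.14% of all genes. It was the death receptor gene Fas, higher by 0.70 (SE 0.11) in 5 of 5 tumours, with all 10 signals below BioB and an adjusted p of 0.413 by limma. Mdm2, the p53 ligase and a p53 target, differed by -0.19 (SE 0.14, adjusted p = 0.746 by limma). Trp53 itself was not analysed here.

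**Figure D3:**
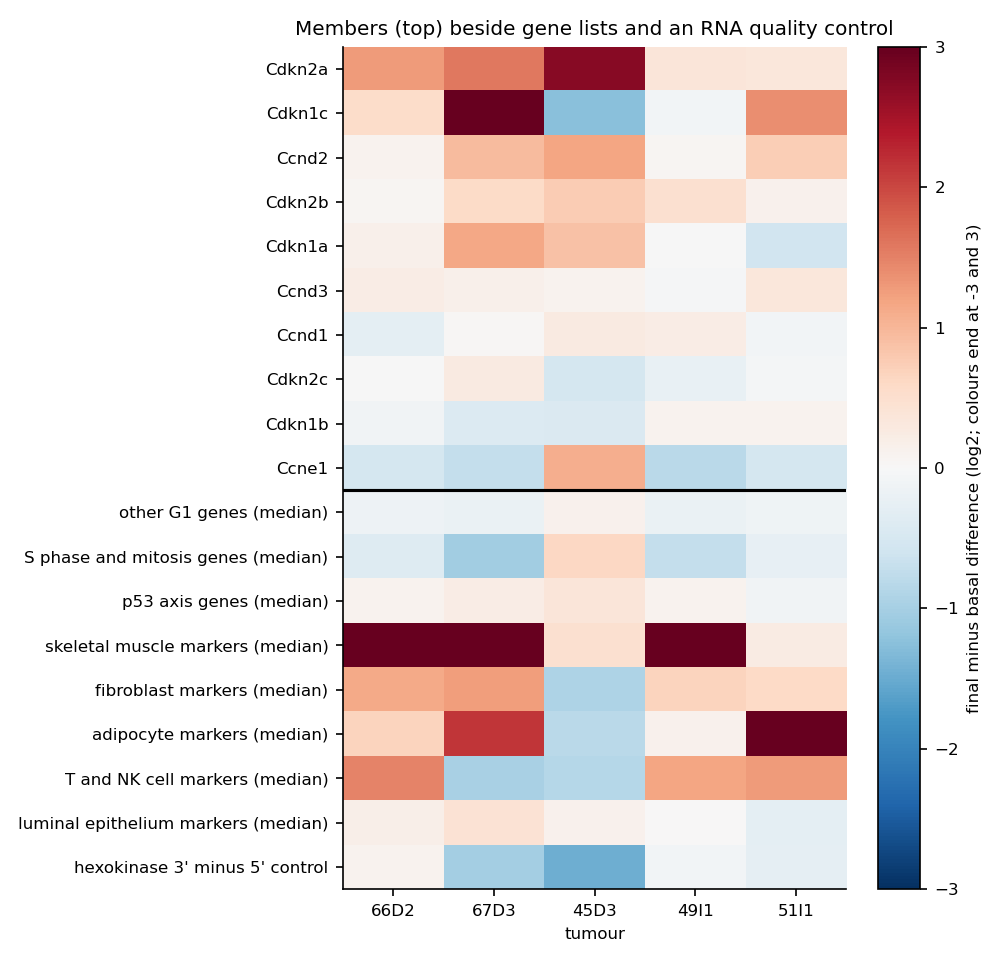
Final minus basal differences (colour, log2 units, with the scale ending at -3 and 3) in each tumour (columns) for the 10 members (rows above the line) and, below it, for the median of gene lists and the hexokinase 3′ minus 5′ control. Tumours 67D3 and 45D3 have the largest positive differences of Cdkn2a, Ccnd2, Cdkn2b and Cdkn1a, and they are also the tumours whose hexokinase control went down by more than 1.

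Signs of RNA quality and of other tissues moved with some of these values. The 3′ minus 5′ signal of hexokinase, a control that rises as RNA is degraded, was between 0.97 and 2.36 in the basal samples and between 0.89 and 1.10 in the final samples. It changed by 0.11, -1.02, -1.47, -0.09 and -0.27 in the 5 tumours, most in 67D3 and 45D3, where Cdkn2a, Ccnd2, Cdkn2b and Cdkn1a had their largest differences. With this change as a covariate the mean differences were 0.59 for Cdkn2a, 0.23 for Ccnd2, 0.20 for Cdkn2b and -0.11 for Cdkn1a, none at an unadjusted p under 0.05, and -0.76 for Ccne1. Without both tumours they were 0.66 for Cdkn2a, 0.30 for Ccnd2, 0.23 for Cdkn2b, -0.14 for Cdkn1a and -0.62 for Ccne1; Cdkn2a and Ccne1 were then at an unadjusted p under 0.05, as were 16.8% of all probe sets. The covariate leaves few degrees of freedom, and whether RNA quality contributed to these differences was not tested beyond these values.

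All 9 skeletal muscle markers tested were higher, by a median of 3.01, with 4.55, 6.83, 0.49, 3.13 and 0.25 in the 5 tumours; their summed signal, on a log2 scale, was 10.47 to 11.43 in the basal and 10.79 to 15.27 in the final samples. The Cdkn2a differences in the same order were 1.27, 1.58, 2.73, 0.37 and 0.33. They were largest in 45D3, where muscle markers changed little, and next largest in 67D3, where muscle markers changed most. With the muscle signal as a covariate the differences were 1.17 for Cdkn2a, 0.68 for Ccnd2 and 0.13 for Ccne1, and no member was at an unadjusted p under 0.05. Adipocyte markers (8 of 8) and fibroblast and collagen genes (12 of 12) had positive mean differences, with medians of 1.22 and 0.60, and T and NK cell markers (10 of 10) a median of 0.36. The T and NK cell medians were 1.49, -0.97, -0.85, 1.18 and 1.28 in the 5 tumours, negative in 67D3 and 45D3, where Cdkn2a, Ccnd2, Cdkn2b and Cdkn1a had their largest differences. Medians in 67D3 and 45D3 were also negative for macrophage (-0.86 and -0.77) and B and plasma cell markers (-0.79 and -0.97, 2 tested). The same held for mast cell (-3.04 and -0.34) and myoepithelial and smooth muscle markers (-0.76 and -0.14). Luminal and skeletal muscle medians were positive in both tumours. Of 9 endothelial markers 8 were higher (median 0.43), and of 7 mast cell markers 5 were lower (median -0.97, and -3.04 in tumour 67D3). The fibroblast median was -0.93 in tumour 45D3 and between 0.59 and 1.26 in the others. The part of these tissues in the members' differences was not tested further, and in bulk tissue fewer cells of a type and less RNA per cell cannot be told apart. Of the 11 luminal epithelial markers, 9 had mean signals above BioB, and Esr1 and Foxa1 were left out as dim. The summed signal of the 11, on a log2 scale, was 14.92 to 15.36 in the basal and 14.92 to 15.34 in the final samples. This sum rests on the brightest markers. The median difference of the 9 tested was 0.06, with 0.17, 0.42, 0.12, 0.01 and -0.28 in the 5 tumours. A single marker could move more: Elf5 differed by 0.48, 0.81, -3.26, -0.16 and 1.52. Cdkn1a differed by 0.16, 1.16, 0.88, -0.0039 and -0.57 in the same order. Cdh1, the gene most like Cdkn1a over the arrays (r = 0.962), is among the luminal markers. Whether luminal content contributed to the Cdkn1a differences was not tested.

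**Figure D4:**
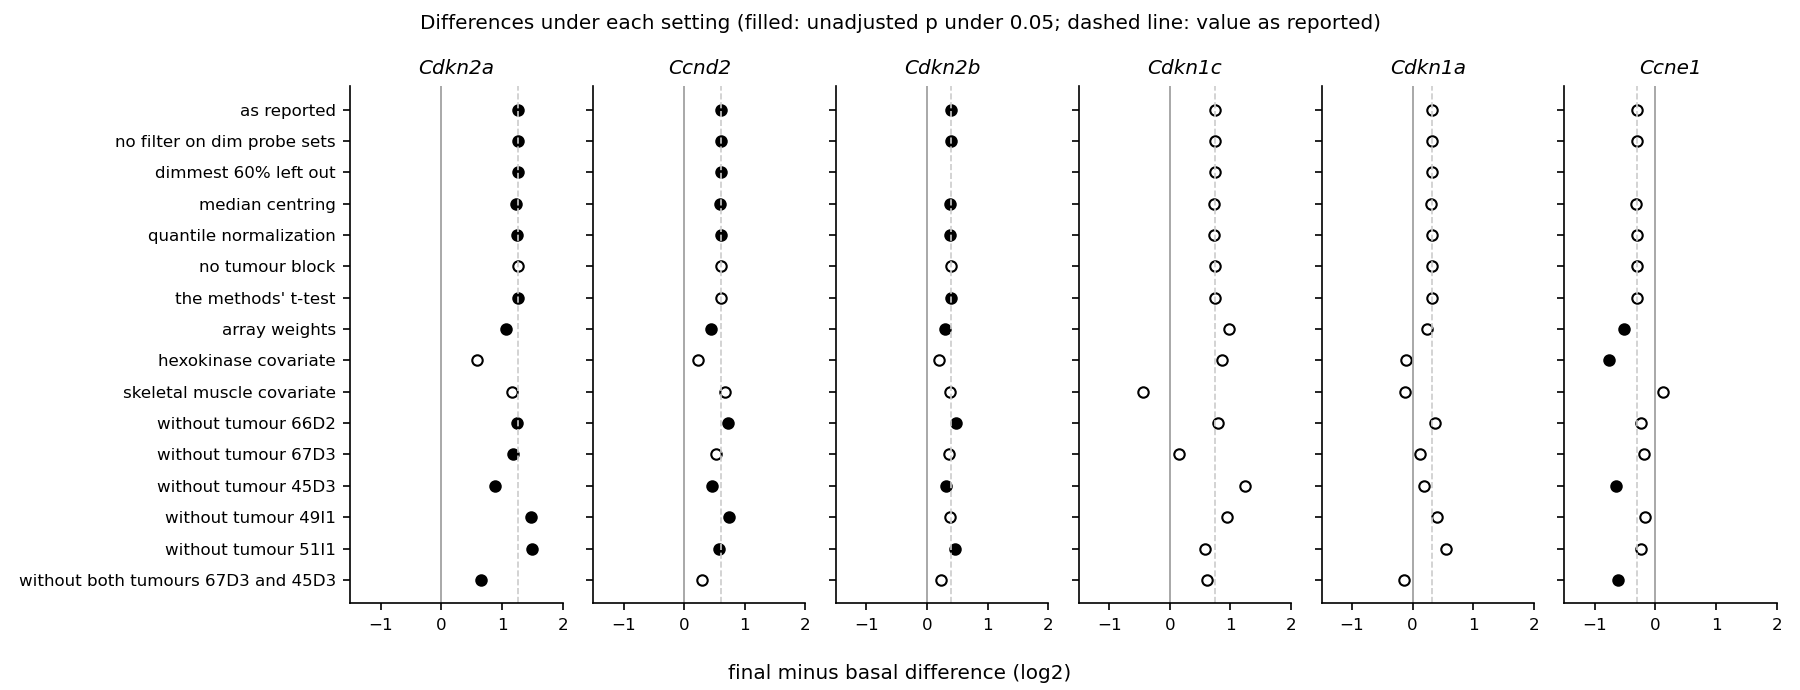
Mean final minus basal differences in log2 signal (horizontal axes) of 6 members under the fit as reported and each alternative (rows); filled points mark an unadjusted p under 0.05 and the dashed line marks the value as reported. Cdkn2a, Ccnd2 and Cdkn2b stay to the right of 0 in every row, while Cdkn1a, Cdkn1c and Ccne1 cross 0 in at least 1 row.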

How the data were processed

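RNA of 10 samples (5 tumours, basal and final) was hybridised to 1 Affymetrix rat expression array each, and the number of arrays limits the precision. The deposited table holds log2 values made by the authors with RMA, per the submitters' processing notes and the series' design text; the log2 scale follows from the range of the values, and no version of RMA is stated. The filter that the design text describes was not found applied to the deposited table, which still holds 57 control probe sets. Probe sets were named from the platform annotation: 20826 had 1 gene symbol, 436 several and 9780 none.

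Control probe sets and the dimmest 40% (mean log2 under 5.14) were left out. The log2 values of 18625 probe sets on 10 arrays went into a linear model (limma 3.58.1, R 4.3.3) with tumour as a block. Variances were moderated by empirical Bayes, and the final minus basal term was tested at a Benjamini-Hochberg adjusted p of 0.05. The study itself used a paired Student test. The fit was tested on simulated data. The pairing comes from the tumour identifiers in the labels. Deviations from group means correlated within tumours at -0.16 (45D3) to 0.72 (66D2), with a mean of 0.30, and no 2 arrays were identical. Only 45D3 had a negative value, so its pairing rests on the label alone. That tumour had the largest differences of Cdkn2a, Ccnd2 and Cdkn2b and the only positive difference of Ccne1. Promoter coordinates and sequences are from RefSeq (GRCr8), a build that the arrays' sources do not name.

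Named genes were all members with every probe set, Cdk2, Cdk4, Cdk6, Rb1, E2f1, Trp53, Mdm2 and Mki67 whatever their values, other pathway genes at an unadjusted p under 0.05, and the 3 genes most correlated with each of 4 members; Mtap was added as a neighbour of Cdkn2a. Members and lists were chosen with earlier results of these data known. Alternatives were other filters and scalings, no tumour block, the methods' t-test, array weights, hexokinase and muscle covariates, each tumour left out and, added after seeing the data, tumours 67D3 and 45D3 left out together.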

Additional observations from a re-analysis of the deposited data

Results flagged for a closer look

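Over the 10 members, 30 groups of 5 values (basal, final and differences) were checked for a value far from the rest, and 2 had one. Chance alone marks about 1 in 20 groups in such a check. Both concern Ccne1: the final signal of tumour 67D3, 5.25, lay below the next value, 6.81, by 0.768 of the group's range, and the difference of tumour 45D3, 1.09, lay above the next, -0.52, by 0.846 of the range. All Ccne1 signals were below BioB.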

How the results depend on the processing

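With 5 tumours and no member past the adjusted threshold, the counts below rest on unadjusted p-values. No member passed the adjusted threshold under any setting; 2 other probe sets did with the hexokinase covariate, Ccn3 and 1 without a symbol, named after their values were seen. The methods' t-test gave 1394 probe sets at an unadjusted p under 0.05 and 0 after Benjamini-Hochberg adjustment (smallest adjusted p = 0.340). By that t-test 2 members, Cdkn2a and Cdkn2b, were at an unadjusted p under 0.05, and Ccnd2 was not. Of 207 comparisons of members with an alternative, 165 kept direction and side of an unadjusted p of 0.05, 15 lost it, 4 gained it and 23 reversed. Mean differences of Cdkn2a, Ccnd2 and Cdkn2b kept their direction under every setting run. The dim genes Ccne1 and Cdkn2b could not be fitted with the dimmest 60% left out. Causes were not tested.

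Probe sets at an unadjusted p under 0.05 (1494) numbered 2276 without the filter, 3254 with array weights, 2564 with the hexokinase covariate, 661 with the muscle covariate, 3131 without both tumours 67D3 and 45D3, and 795 to 3383 with 1 tumour left out (fewest without 67D3, most without 45D3). Members (3) numbered 0 without the replicate block that pairs samples by tumour, 1 with the hexokinase covariate (Ccne1), 0 with the muscle covariate, and 1 to 4 with 1 tumour left out; without 67D3 the 1 was Cdkn2a. G1 machinery genes (2) numbered 5 without the filter, 5 with median centring, 5 with quantile normalization, 12 with array weights, 6 with the hexokinase and 1 with the muscle covariate, 9 without both tumours, and 1 to 10 with 1 left out (10 without 45D3). Replication genes (2) numbered 4 without the filter, with the dimmest 60% left out, with median centring and with the hexokinase covariate, 0 without the replicate block and with the muscle covariate, 9 with array weights, 11 without both tumours, and 0 to 14 with 1 left out (14 without 45D3). p53 axis genes (1) numbered 2 with array weights, 3 with the hexokinase covariate, 3 without both tumours, and 1 to 3 with 1 left out.

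Reversed differences were small for Ccnd1: -0.054 with array weights, -0.092 with the hexokinase covariate, -0.057 without both tumours and -0.033 to 0.11 with 1 tumour left out; its probe set 1371150_at gave 0.027 with the muscle covariate and -0.13 to 0.058 with 1 left out. Ccne1 gave 0.13 with the muscle covariate. Cdkn1a gave -0.11 with the hexokinase covariate, -0.13 with the muscle covariate and -0.14 without both tumours; its dimmer probe set gave -0.63 with the hexokinase covariate, -0.56 without both tumours and -0.10 to 0.65 with 1 left out. Cdkn1b gave 0.037 with the hexokinase covariate and 0.035 without both tumours, and Cdkn1c gave -0.44 with the muscle covariate. The dim Cdkn2c probe set gave 0.11 with the muscle covariate and -0.12 to 0.014 with 1 left out.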
